A study of Mus musculus with 18 samples.

Results

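The comparison set control HM-1 tumors grown in mice against control HM-1 cells kept in culture, with 3 libraries in each group, 6 of the 18 libraries of the series. HM-1 is an ovarian cancer line of the mouse. The libraries were chosen by their labels: the tumor group carries the cell line HM-1, the strain B6C3F1 and the genotype control, and the culture group is the same control line in dish culture. Tumors grew in the skin of B6C3F1 mice for 10 days after an intradermal inoculation of 1000000 cells, and were frozen before RNA extraction. Cultured cells were kept in MEM alpha with heat-inactivated serum. The controls of both groups serve in the series as the counterpart of a Cd276 knockout, and the labels do not say whether they carry a control guide or vector. All libraries of a group are called biological replicates, but the number of clones, dishes or mice behind them is not stated, so every p-value measures the spread between these libraries. The age and sex of the mice are not given. The question the comparison addresses is what growth in an immunocompetent host adds to, or changes from, the RNA of the cultured cancer cells.

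A tumor transplanted into the skin is a mixture of the inoculated cells and of cells that the host supplies. Macrophages, neutrophils and lymphocytes enter from the blood, endothelial cells and pericytes form its vessels, and fibroblasts lay down the collagen-rich matrix. Cancer cells in such a mass meet less oxygen, fewer nutrients and more cytokines than in a dish, and classical pathways answer to these conditions: hypoxia-inducible factors switch on glycolysis and angiogenic genes, interferons switch on antigen presentation through STAT and IRF factors, and Nrf2 keeps up genes of glutathione and thioredoxin metabolism. A whole-tumor library reads all cells together.

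The promoters of 4 genes are shown because 2 belong to an interferon gamma group that was higher in tumors and 2 to an Nrf2 group that was lower. The 4 genes were chosen after their values were seen. Each run is the 150 bases upstream of the RefSeq start, in the direction of transcription, on build GRCm38.p6. In the first pair, capitals mark GAAA, any 2 bases and GAAA again, on either strand, the core that IRF factors bind. In the second pair, capitals mark TGACNNNGC on either strand, the core of the antioxidant response element.

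Gbp2, an interferon-induced GTPase (chr3:142620513-142620662, plus strand): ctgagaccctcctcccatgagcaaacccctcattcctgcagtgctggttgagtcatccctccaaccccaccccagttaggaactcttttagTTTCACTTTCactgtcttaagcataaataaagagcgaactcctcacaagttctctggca

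Irgm1, an immunity-related GTPase (chr11:48871421-48871570, minus strand): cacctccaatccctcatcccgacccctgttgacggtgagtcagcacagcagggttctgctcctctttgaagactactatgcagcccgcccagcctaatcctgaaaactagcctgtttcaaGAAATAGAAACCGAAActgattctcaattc

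Gclm, the modifier subunit of glutamate-cysteine ligase, which makes the glutathione precursor (chr3:122245407-122245556, plus strand): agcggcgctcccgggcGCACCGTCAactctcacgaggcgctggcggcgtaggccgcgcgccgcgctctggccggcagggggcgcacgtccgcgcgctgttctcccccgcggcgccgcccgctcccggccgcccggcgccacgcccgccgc

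Txnrd1, a thioredoxin reductase (chr10:82859056-82859205, plus strand): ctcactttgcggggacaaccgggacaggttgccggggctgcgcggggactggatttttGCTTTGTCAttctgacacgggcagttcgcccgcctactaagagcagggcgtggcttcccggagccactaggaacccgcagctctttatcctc

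The window searched for counts ran from 250 bases before to 50 after each start. The IRF core was found in 11 of the 16 genes of the interferon gamma list that had a promoter in the table (68.8%) and in 11 of 20 of the interferon response list (55%), against 1079 of 27025 genes in all (3.99%). The STAT core TTCNNNGAA was found in 9 of 16 interferon gamma genes (56.2%) and 3 of 20 interferon response genes (15%), against 9.55% of all genes. Of the 14 Nrf2 genes, 9 had a promoter in the table. TGACNNNGC was found in 6 of these 9 (66.7%), against 3781 of 27025 genes in all (14%), and the IRF core in 0 of the 9. In the other lists searched, TGACNNNGC was found in 18.8% (DNA replication, 3 of 16) to 33.3% (MHC class II, 2 of 6) of genes. Its share was 25% in the interferon gamma list and 20% in the interferon response list. These motifs may overlap each other, and a match is a run of letters, not a shown binding site.

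Total counts were 19181652 to 24711051 in the tumors and 17631035 to 25354150 in the cultures. Libraries of a group were not equally alike. A chi-square of the counts per gene, which is 1 where only sampling noise separates 2 libraries, was 41.1 between tumors 1 and 2, and 134 and 81.3 between each of these and tumor 3. Among cultures it was 1.57 between libraries 2 and 3, and 64.9 and 63.9 between each of these and culture 1. Tumor 3 and culture 1 thus stood apart from their groups. Levels below are CPM, counts scaled to a common library total, in the order of replicates 1, 2 and 3. They are not corrected for gene length, so they compare a gene between libraries and not one gene with another. A log2 fold change is tumors over cultures, and a gene is called where its adjusted p in edgeR's quasi-likelihood test is under 0.05. Gene positions are from GENCODE M21 on GRCm38. Genes given as not called, as at or near 0, or as group means were also chosen after their values were seen.

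The tumor gained many genes that the culture hardly used and lost level in many that the culture used strongly. Of 14609 genes tested, 6107 (41.8%) were called, 3689 (25.3%) higher and 2418 (16.6%) lower in tumors. The higher genes were changed by more: 3103 (21.2%) were higher over 2-fold and 1296 (8.87%) over 16-fold. For lower genes these counts were 750 (5.13%) and 6 (0.0411%). Among tested genes, 865 had at most 3 counts over the cultures, and all 865 were higher. The filter admitted them only through the tumors, and culture levels near 0 set their folds. Part of this difference in size therefore follows from the filter. All tumors lay above all cultures in 5400 genes (37.0%) and below all cultures in 2758 (18.9%). The median log2 fold change of all tested genes was 0.05. Scaling on genes that the cultures express at 10 CPM or more moved this median to 0.26 and the share of calls that were higher to 76.1%, against 60.4%. Total count scaling gave 71.2%, upper-quartile scaling 71.0%. Without culture 1 and tumor 3 the test called 9121 genes, 5057 higher and 4064 lower.

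Genes were then split by their level in culture, which is also the denominator of the fold change. Low classes therefore lean higher and high classes lean lower in part by construction, and a trend was not tested. Of the 2290 genes above 100 CPM in cultures, 39.6% were lower and 3.71% higher in tumors, with a median log2 fold change of -0.38. Between 10 and 100 CPM, 20.5% of 6684 genes were lower and 11.4% higher. Between 1 and 10 CPM, 4.7% of 2530 were lower and 27.4% higher. Between 0.1 and 1 CPM, 1.19% of 2016 were lower and 52.5% higher. Long noncoding classes were mostly on the higher side, with 40.9% of 403 lincRNA genes higher and 2.73% lower, while protein-coding genes were split 24.2% to 18.3%. These classes were not matched for level in culture. The cultures held at most 3 counts in all for 10612 genes that had a count in a tumor. These genes took up 2.18%, 1.15% and 0.745% of the counts of tumors 1, 2 and 3. A gene of this kind can pass the count filter only through the tumors, so its being higher among tested genes follows from the filter. The same holds for the lowest genes of the class between 0.1 and 1 CPM.

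**Figure D1:**
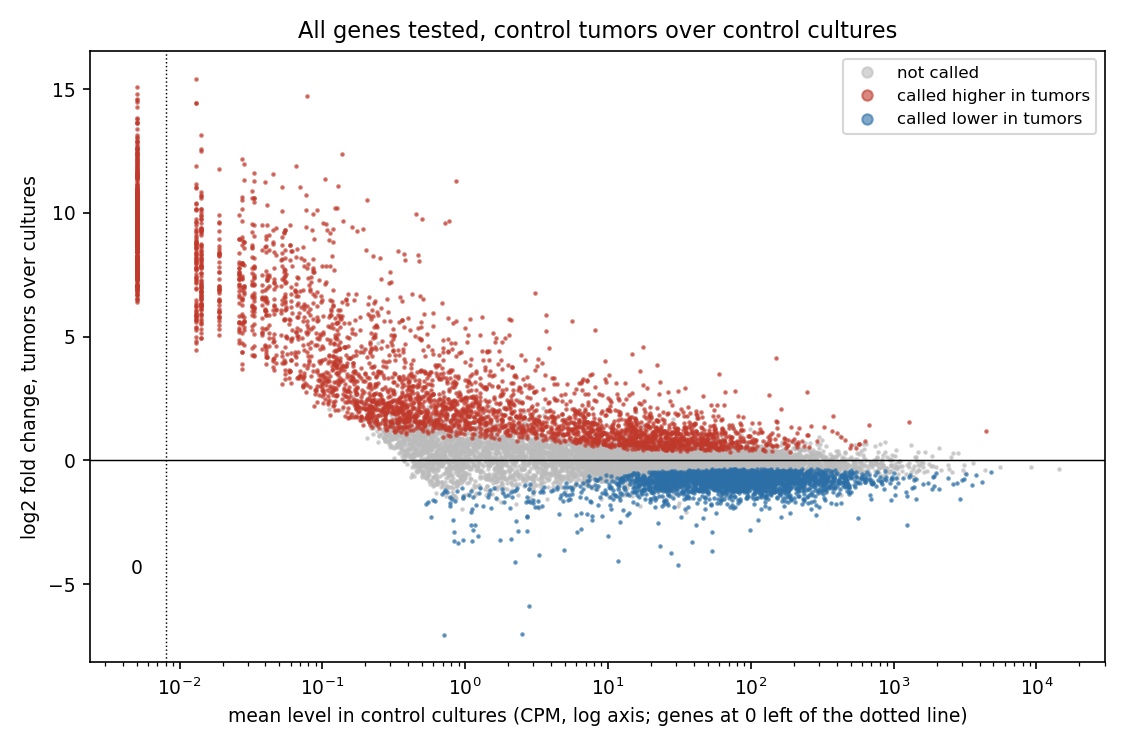
Each point is 1 of the 14609 genes tested, with the mean level in control cultures (CPM, log axis) across and the log2 fold change of tumors over cultures upward. Called higher genes reach the largest folds at the left, where cultures are near 0, and called lower genes gather at the right, where 39.6% of genes above 100 CPM were lower. The level in culture is also the denominator of the fold change, so part of this slope follows by construction.

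Cells of the host immune system were read first by their marker genes, and macrophage markers led them. Of 22 macrophage and monocyte genes, 21 were higher and 0 lower, but 11 of the 22 had at most 3 counts over the cultures, so that the filter admitted them through the tumors. Such genes also numbered 11 of 15 in the neutrophil list, 5 of 10 in the dendritic, 9 of 16 in the T cell, 10 of 11 in the natural killer, 9 of 11 in the mast cell and 5 of 14 in the fibroblast list, and the counts of these lists are descriptions only. The filter left 9 of 15 neutrophil, 7 of 10 dendritic and 10 of 16 T cell genes for the test. It left 3 of 11 natural killer, 7 of 11 mast cell and 12 of 14 fibroblast genes. Among all genes tested 25.3% were higher and 16.6% lower. The summed level of the macrophage list was 2690, 1960 and 1690 CPM in tumors, against 96.6, 82.0 and 84.5 CPM in cultures. In a mixed tumor, fewer cells of a type and less RNA per cell cannot be told apart. C1qa, a subunit of complement C1q that macrophages make (ENSMUSG00000036887.5, chromosome 4, 136895917 to 136898803), had 273.6, 185.2 and 158.3 CPM in tumors and no count in any culture. It was at least 4683-fold higher against a floor of 3 counts over the cultures, as were C1qb by at least 3386-fold and C1qc by at least 3051-fold. Bounds and intervals of this kind cover counting error only. Csf1r, the receptor for the macrophage growth factor CSF1, had 134.7, 90.83 and 45.98 CPM in tumors, against 0.113, 0.118 and 0.127 CPM in cultures (log2 fold change 9.36, SE 0.57, adjusted p = 0.000124). All 3 tumors were far above all cultures for these genes, with tumor 3 the lowest. Ptprc, the leukocyte antigen CD45, had 63.49, 41.03 and 32.06 CPM in tumors and 0, 0.0789 and 0.0845 CPM in cultures (9.32, SE 0.52, adjusted p = 8.88e-05). Apoe, a lipid carrier that macrophages make, had a measurable culture level. It had 506.4, 445.8 and 153.4 CPM in tumors, against 3.91, 2.80 and 2.58 CPM in cultures (6.75, SE 0.54, adjusted p = 0.0003). Not all macrophage genes told the groups apart: Cd14, the lipopolysaccharide co-receptor, averaged 72.3 CPM in tumors and 61.7 CPM in cultures and was the 1 gene of the list that was not called.

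Macrophage products and activation genes were high as well. Of 12 genes tied to alternative activation, 8 were higher and 0 lower, against 25.3% of all genes higher. Of the 12, 5 had at most 3 counts over the cultures and could pass the filter only through the tumors. Mgl2, a lectin of such cells, had 150.9, 123.0 and 76.48 CPM in tumors, against 0.113, 0.118 and 0.0423 CPM in cultures (10.12, SE 0.44, adjusted p = 5.6e-05). Arg1, arginase, chosen after its values were seen, had 91.74, 117.5 and 203.5 CPM in tumors, against 0.567, 0.394 and 0.465 CPM in cultures (8.05, SE 0.45, adjusted p = 8.88e-05). The order of tumors was the reverse of that of Mgl2, with Arg1 highest in tumor 3. Of 19 lysosome genes, 10 were higher and 0 lower, and 3 had at most 3 counts over the cultures. The protease gene Ctss had 273.1, 196.6 and 138.6 CPM in tumors from 1 count over all cultures. That is a ratio of 13900 (95% counting interval 2494 to 549000). Spp1, osteopontin, which macrophages and carcinoma cells can both make, had 5977, 7784 and 11260 CPM in tumors, against 10020, 8710 and 8568 CPM in cultures. Its groups overlapped and it was not called (-0.27, SE 0.27, adjusted p = 0.461).

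Neutrophil, dendritic and mast cell genes were higher at lower levels. Of 15 neutrophil genes, 8 were higher and 1 lower, with sums of 50.8, 50.6 and 153 CPM in tumors, against 7.32, 5.80 and 5.79 CPM in cultures. S100a8, an alarmin of neutrophils, had 3.24, 4.08 and 22.94 CPM in tumors and no count in cultures, at least 206.8-fold higher. Csf3r, the receptor for G-CSF, had 12.34, 10.60 and 26.43 CPM in tumors and no count in cultures, at least 353.6-fold higher. Both were highest in tumor 3, as was the interleukin-1 beta gene Il1b with 44.35, 36.76 and 106.5 CPM and no count in cultures. The granule genes of immature neutrophils were at or near 0 in every library: Elane had no count, and Mpo, Ngp, Camp and Ltf averaged under 1 CPM in tumors. Ly6g, the antigen by which mouse neutrophils are commonly sorted, went the other way, with 1.38, 0.938 and 1.04 CPM in tumors and 5.33, 4.30 and 3.97 CPM in cultures (-2.16, SE 0.33, adjusted p = 0.00263). Of 10 dendritic cell genes, 7 were higher, and the integrin gene Itgax had 48.32, 35.69 and 26.95 CPM in tumors with no count in cultures (at least 842.2-fold). Mast cell proteases varied between tumors. Tpsb2, a tryptase, had 51.35, 9.94 and 84.61 CPM, and Mcpt4, a chymase, 38.04, 7.36 and 88.31 CPM, with no count of either in cultures, bounds of at least 1057-fold and at least 950.8-fold. In a test of all genes with no filter on low counts neither was called, with adjusted p of 0.0883 for Tpsb2 and 0.119 for Mcpt4. Of the 11 genes of that list, 6 were higher and 0 lower.

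Lymphocyte genes were present at low levels. Of 16 T cell genes, 8 were higher and 0 lower, and their sum was 37.7, 16.7 and 18 CPM in tumors, against 2.84, 3.04 and 3.55 CPM in cultures. Cd3e, a subunit of the T cell receptor complex, had 1.62, 0.188 and 1.04 CPM in tumors and no count in cultures, and did not pass the filter on low counts. Cd3g, another subunit, had 2.27, 0.985 and 0.782 CPM in tumors and no count in cultures (at least 31.34-fold). Il2ra, the high-affinity subunit of the interleukin-2 receptor, had 6.03, 2.44 and 2.03 CPM in tumors and 1 count over the cultures. The coreceptor Cd4, chosen after its values were seen, had 5.67, 2.72 and 1.30 CPM in tumors, against 0.113, 0.118 and 0 CPM in cultures (5.18, SE 0.90, adjusted p = 0.00407). Foxp3, the factor of regulatory T cells and likewise chosen after its values were seen, had 2.83, 0.938 and 2.502 CPM in tumors, against 0.113, 0.0789 and 0.169 CPM in cultures (3.93, SE 0.61, adjusted p = 0.00275). The cytotoxic coreceptor Cd8a had 16 counts over the 3 tumors and 1 over the cultures. Interferon gamma itself, Ifng, had 1 count over the 3 tumors and 0 over the cultures. Of 11 natural killer and cytotoxic genes, 2 were higher and 1 lower. The granzyme gene Gzmb had 2.71, 2.53 and 7.35 CPM in tumors and no count in cultures (at least 89.26-fold). The lower one was Eomes, a T-box factor of killer lymphocytes, with 13.52, 18.15 and 18.46 CPM in tumors, against 53.03, 52.46 and 52.47 CPM in cultures (-1.80, SE 0.17, adjusted p = 0.000549). All tumors lay below all cultures. None of 10 B and plasma cell genes passed the filter on low counts, with sums of 7.32, 4.17 and 1.77 CPM in tumors, against 0.454, 0.316 and 0.211 CPM in cultures.

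**Figure D2:**
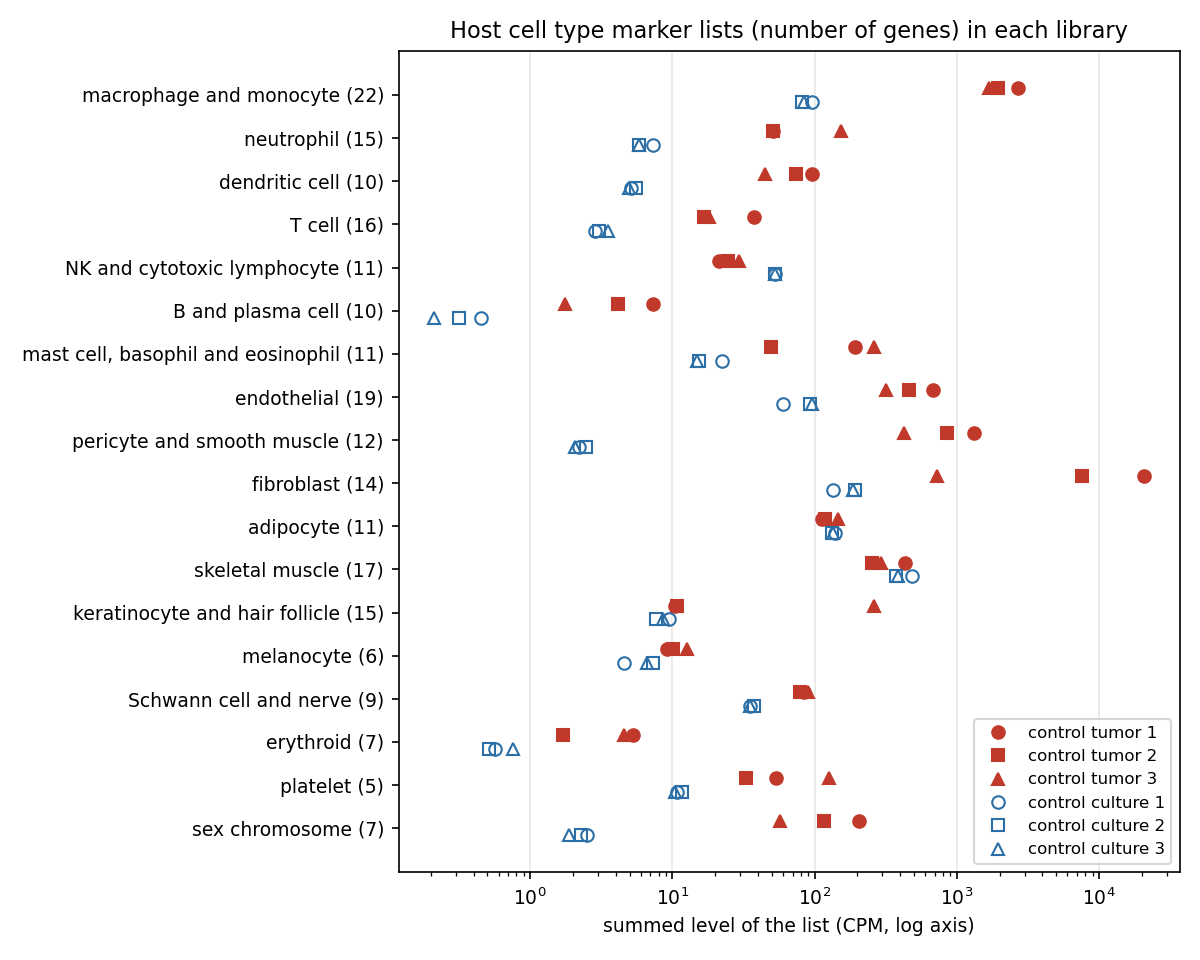
Each row is a marker list with its number of genes, and each symbol the summed level of the list in 1 library (CPM, log axis), filled red for control tumors and open blue for control cultures. Macrophage, pericyte and endothelial sums of the 3 tumors lie clear of the cultures, the fibroblast sum spans 725 to 20800 CPM among tumors, and the keratinocyte sum is raised in tumor 3.

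Of 12 pericyte and smooth muscle genes, all 12 were higher, against 25.3% of all genes, but 7 of the 12 had at most 3 counts over the cultures and could pass the filter only through the tumors. Their sums were 1320, 850 and 422 CPM in tumors, against 2.21, 2.45 and 2.07 CPM in cultures. Rgs5, a regulator of G protein signaling and a marker of pericytes, had 235.2, 176.9 and 100.4 CPM in tumors and no count in cultures, at least 3922-fold higher. Acta2, smooth muscle actin, had 334.2, 72.54 and 95.30 CPM in tumors and 3 counts over the cultures, a ratio of 3963 (95% counting interval 1356 to 19220). Of 19 endothelial genes, 17 were higher and 0 lower, 8 of the 19 having at most 3 counts over the cultures, with sums of 676, 463 and 318 CPM in tumors, against 59.8, 93.4 and 95.7 CPM in cultures. Pecam1, the junction protein CD31, had 92.99, 53.74 and 31.70 CPM in tumors, against 3.29, 3.47 and 3.68 CPM in cultures (3.95, SE 0.40, adjusted p = 0.000657). Emcn and Cldn5, an endothelial mucin and a tight junction claudin, had no count in cultures and were at least 422.4-fold and at least 234.4-fold higher. The lymphatic factor Prox1 averaged 0.292 CPM in tumors and did not pass the filter, while Lyve1, shared by lymphatic vessels and some macrophages, averaged 7.64 CPM in tumors and had no count in cultures.

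Fibroblast genes differed more between tumors than any other stromal list did. Of 14 genes, 12 were higher and 0 lower, and the sum was 20800, 7600 and 725 CPM in tumors, against 135, 193 and 185 CPM in cultures. Postn, periostin, a matrix protein of activated fibroblasts (ENSMUSG00000027750.16, chromosome 3, 54361109 to 54391037), had 1865, 1040 and 70.59 CPM in tumors and 1 count over the cultures. The ratio was 71150 with a 95% counting interval of 12770 to 2810000. Col1a2, a chain of type I collagen, had 5406, 1778 and 109.1 CPM in tumors, against 0.113, 0.0789 and 0.0423 CPM in cultures (14.73, SE 1.95, adjusted p = 0.00162). Thy1 had 182.1, 117.0 and 59.07 CPM in tumors and no count in cultures (at least 2770-fold). Pdgfra, the receptor that fibroblasts carry for platelet-derived growth factor, had 63.90, 28.75 and 5.47 CPM in tumors, against 1.65, 2.09 and 1.65 CPM in cultures (4.03, SE 0.82, adjusted p = 0.00733). Its adjusted p was 0.0543 with no filter on low counts. Tumor 3 was the lowest in each of these genes and still lay above all cultures. Col3a1, type III collagen, chosen after its values were seen, was the exception, with 6379, 2220 and 90.45 CPM in tumors and 122.6, 166.6 and 160.8 CPM in cultures, so that tumor 3 lay below the cultures. It was called at 4.12 (adjusted p = 0.0309), and the call ended without tumor 1 (2.79, adjusted p = 0.0775), tumor 2 (0.0632), culture 1 (0.109), culture 2 (0.087) or culture 3 (0.0878). It also ended with limma voom (2.70, adjusted p = 0.101), with no filter (0.176) and with the replicate block (3.04, adjusted p = 0.169).

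The matrix as a whole was higher. Of 29 matrix genes, 24 were higher and 0 lower against a background of 25.3% and 16.6%, with a median log2 fold change of 4.98 over the 28 tested, and 7 of the 29 had at most 3 counts over the cultures. Col5a2 and Col6a2, chains of collagens V and VI, rested on 1 count each in cultures, against 1003, 441.0 and 61.05 CPM and 901.1, 500.1 and 90.14 CPM in tumors. Thbs1, thrombospondin, had 582.1, 252.1 and 92.95 CPM in tumors, against 3.52, 6.86 and 6.51 CPM in cultures (5.63, SE 0.71, adjusted p = 0.00142). Tgfbi, a matrix protein induced by TGF-beta, had 181.9, 147.2 and 124.8 CPM in tumors, against 2.89, 3.71 and 4.39 CPM in cultures (5.22, SE 0.22, adjusted p = 5.52e-05). Fibronectin was already a strong gene of the cultured line. Fn1, chosen after its values were seen, had 3761, 4862 and 3635 CPM in tumors, against 665.4, 1653 and 1512 CPM in cultures (1.55, SE 0.32, adjusted p = 0.00806).

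Proteases that cut the matrix, and their inhibitors, were higher in 18 of 20 cases, with 0 lower and a median of 3.43. The background was 25.3% higher, and 5 of the 20 had at most 3 counts over the cultures. Mmp12, the macrophage metalloelastase, had 144.6, 148.1 and 238.3 CPM in tumors and 2 counts over the cultures, a ratio of 5775 (95% counting interval 1598 to 47700). Mmp9, gelatinase B, chosen after its values were seen, had 368.3, 670.0 and 1063 CPM in tumors, against 0.567, 0.789 and 0.972 CPM in cultures (9.66, SE 0.55, adjusted p = 9.45e-05). Mmp2, gelatinase A, which fibroblasts make, had the opposite order, with 330.2, 76.15 and 9.12 CPM in tumors and 1 count over the cultures. Plat, tissue plasminogen activator, had 298.9, 211.6 and 198.6 CPM in tumors, against 3.40, 3.94 and 3.72 CPM in cultures (5.86, SE 0.22, adjusted p = 5.52e-05).

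Tissue that a skin tumor can be cut out with was looked for separately. Muscle actin and basal keratin each stood out in 1 tumor, while some other genes of these lists were higher in all 3. The filter on low counts left 7 of 17 skeletal muscle, 2 of 15 keratinocyte, 4 of 11 adipocyte and 1 of 6 melanocyte genes. It left 2 of 7 erythroid, 3 of 5 platelet and 4 of 9 Schwann cell and nerve genes. Among all genes tested 25.3% were higher and 16.6% lower. Acta1, skeletal muscle actin, had 55.64 CPM in tumor 1, with 0.188 and 0.313 CPM in tumors 2 and 3 and 0.113, 0.0789 and 0.127 CPM in cultures. Of 17 skeletal muscle genes, 3 were higher and 1 lower, and 5 were higher when tumor 3 was left out and 6 when tumor 2 was. Krt14, a keratin of basal epidermis, had 107.8 CPM in tumor 3, with 0.121 and 0 CPM in tumors 1 and 2 and 0.0567, 0.0789 and 0.0423 CPM in cultures. The keratinocyte list summed to 10.4, 10.8 and 263 CPM in tumors, against 9.53, 7.65 and 8.58 CPM in cultures, and 1 of its 15 genes was higher. Ryr1, the calcium release channel of muscle, chosen after its values were seen, had 3.844, 0.985 and 1.095 CPM in tumors, against 0.227, 0.197 and 0.211 CPM in cultures (3.06, SE 0.67, adjusted p = 0.0099). Fabp4, a fatty acid carrier of adipocytes and also of endothelium and macrophages, had 16.07, 4.36 and 3.65 CPM in tumors, against 1.08, 0.592 and 0.422 CPM in cultures (3.38, SE 0.72, adjusted p = 0.00912). Of 11 adipocyte genes, 2 were higher and 1 lower, and the defining genes Adipoq, Plin1 and Lep averaged under 0.1 CPM in both groups. Melanocyte genes gave 0 calls, with 1 of the 6 tested, and the pigment genes Dct, Tyr, Tyrp1 and Mlana averaged under 0.1 CPM in both groups. Of 7 erythroid genes, 2 were higher, and the hemoglobin gene Hbb-bs had 2.79, 0.563 and 1.25 CPM in tumors and no count in cultures. The platelet chemokine gene Pf4, which macrophages can also express, had 41.03, 22.09 and 74.55 CPM in tumors, against 0.454, 1.10 and 0.718 CPM in cultures (5.75, SE 0.57, adjusted p = 0.000641), and 2 of the 5 platelet genes were higher. Of 9 Schwann cell and nerve genes, 3 were higher, among them Prx with 30.15, 35.36 and 54.64 CPM in tumors, against 13.16, 13.65 and 12.42 CPM in cultures (1.48, SE 0.25, adjusted p = 0.00381), while the defining gene Sox10 averaged under 0.2 CPM in both groups.

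One X-linked transcript was near 0 in culture and strong in tumors. Xist, the RNA that coats the inactive X chromosome in female cells (ENSMUSG00000086503.4, chromosome X, 103460366 to 103483254), had 201.2, 112.7 and 50.52 CPM in tumors and 2 counts over the cultures. The ratio was 4265 with a 95% counting interval of 1180 to 35220. The 4 Y-linked genes of the list had no count in any of the 6 libraries. The order of Xist among tumors was tumor 1 above tumor 2 above tumor 3. Pericyte, fibroblast, macrophage, endothelial, class II, DNA replication and mitosis sums all had this order, so it is not particular to any of them.

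The identity of the line was checked on epithelial, ovarian surface and mesenchymal genes. The cultured cells were rich in keratins and vimentin together. Krt8 had 1848, 1935 and 2275 CPM in tumors, against 2851, 2440 and 2430 CPM in cultures (-0.49, SE 0.18, adjusted p = 0.0591), and passed the threshold when tumor 3 was left out (-0.62, adjusted p = 0.0276). Vim, vimentin, had 4273, 4491 and 6359 CPM in tumors, against 5956, 5468 and 5343 CPM in cultures, and was not called (-0.29, SE 0.21, adjusted p = 0.316). Epcam, the epithelial adhesion molecule often used to sort carcinoma cells, had no count in cultures and 0.324, 0.375 and 4.64 CPM in tumors. Cdh1, E-cadherin, had 9.83, 4.97 and 13.24 CPM in tumors, against 0.0567, 0.0789 and 0.211 CPM in cultures (6.11, SE 0.63, adjusted p = 0.00069). Epcam and Cdh1 were both highest in tumor 3, the tumor in which Krt14 and the keratinocyte sum stood out. The part of skin and other host cells in these 2 genes was not tested. Of 15 epithelial genes, 11 were tested, and 2 were higher and 2 lower, against a background of 25.3% and 16.6% of tested genes. The lower count was 6 when tumor 3 was left out.

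Mesothelin stood out among genes of the ovarian surface. Msln, a surface antigen of mesothelium and of ovarian cancers (ENSMUSG00000063011.6, chromosome 17, 25748613 to 25754378), had 100.4, 104.6 and 169.1 CPM in tumors, against 14.46, 12.19 and 12.72 CPM in cultures. All tumors lay above all cultures, and the log2 fold change was 3.11 (SE 0.26, adjusted p = 0.000357). Podxl, podocalyxin, of the same list and chosen after its values were seen, had 45.53, 24.99 and 6.465 CPM in tumors, against 7.09, 11 and 8.619 CPM in cultures, with overlapping groups and no call (1.38, SE 0.60, adjusted p = 0.105). Upk3b and Gata4 had no count in any of the 6 libraries, and Muc16, the CA125 antigen, had none in tumors. Wt1, likewise a gene of mesothelium and of ovarian surface, averaged 1.58 CPM in tumors and had 1 count over the cultures. Of the 10 genes, 4 were tested, and 2 were higher and 0 lower, against 25.3% of all genes tested higher. When tumor 3 was left out, 4 were higher. Of 13 mesenchymal genes, 7 were higher and 0 lower, with a median of 0.89, against 25.3% and 16.6% of all genes. Snai2, a repressor of E-cadherin, had 15.34, 8.54 and 0.991 CPM in tumors and no count in cultures (at least 197.6-fold). Prrx1, a mesenchymal homeobox factor, had 97.24, 71.23 and 36.23 CPM in tumors, against 10.32, 13.84 and 13.82 CPM in cultures (2.29, SE 0.34, adjusted p = 0.00243). Both followed the order of the fibroblast sum among tumors, which several other lists shared. The part of host cells in these differences was not tested.

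Cd276, the gene that the series studies, encodes B7-H3, a member of the B7 checkpoint family. It had 142.0, 107.4 and 115.7 CPM in tumors, against 74.24, 93.52 and 91.47 CPM in cultures. All tumors lay above all cultures, but the difference was not called (0.36, SE 0.15, adjusted p = 0.0982). It passed the threshold under the 3 other scalings named above, with adjusted p of 0.0236 with culture-expressed genes, 0.0465 with total counts and 0.0341 with upper quartiles, and in the fit of all 18 libraries (0.0105). Of the 18 genes of checkpoints and ectoenzymes, 13 were higher and 1 lower, against 25.3% of all genes higher. Of the 18, 6 had at most 3 counts over the cultures. Cd274, which encodes PD-L1 and was chosen after its values were seen, had 15.98, 19.65 and 24.66 CPM in tumors, against 1.76, 1.85 and 2.66 CPM in cultures (3.13, SE 0.28, adjusted p = 0.000454). Vsir, the myeloid checkpoint VISTA, had 53.46, 41.45 and 28.93 CPM in tumors, against 0, 0.118 and 0.0423 CPM in cultures (9.18, SE 0.52, adjusted p = 9.45e-05). Entpd1, the ectoenzyme CD39 that breaks down ATP, had 43.95, 25.84 and 15.48 CPM in tumors and 2 counts over the cultures. Tigit, a lymphocyte receptor, was the lower gene, with 14.24, 12.71 and 11.83 CPM in tumors and 19.06, 19.76 and 19.56 CPM in cultures (-0.73, SE 0.15, adjusted p = 0.00834).

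Genes of MHC class II were near 0 in culture. All 9 class II genes were higher with a median of 8.62, and 6 of them had at most 3 counts over the cultures. The part of host cells was not tested. H2-Ab1, the beta chain of I-A (ENSMUSG00000073421.5, chromosome 17, 34257689 to 34269419), had 215.7, 125.5 and 93.74 CPM in tumors and no count in cultures, at least 3340-fold higher. The invariant chain gene Cd74, chosen after its values were seen, had 765.1, 410.8 and 330.4 CPM in tumors, against 0.397, 0.276 and 0.676 CPM in cultures (9.97, SE 0.52, adjusted p = 7.77e-05). Class I differed less. Of 20 class I genes, 12 were higher and 1 lower, with a median of 1.05, against 25.3% of all genes higher. In this list 6 were higher without culture 2 and 6 without culture 3. Psmb8, an immunoproteasome subunit, had 23.67, 16.23 and 11.78 CPM in tumors from 1 count over the cultures. Psmb9, its partner, had 12.30, 7.41 and 12.30 CPM in tumors, against 0.737, 0.907 and 0.338 CPM in cultures (3.86, SE 0.46, adjusted p = 0.00109). The heavy chain gene H2-K1 had 516.1, 544.6 and 1675 CPM in tumors, against 480.0, 396.1 and 382.6 CPM in cultures, and was not called (0.99, adjusted p = 0.137). Tumor 3 was the highest, as it was for H2-D1 with 394.1, 398.6 and 1088 CPM in tumors, against 358.5, 264.9 and 271.6 CPM in cultures (0.93, adjusted p = 0.124). Reads of these closely related H2 genes may be split between copies.

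Interferon genes were higher, most of them at low levels. Of 21 interferon gamma genes, 17 were higher and 0 lower, with a median of 3.42, against the background of 25.3% and a median of 0.05, and 3 of the 21 had at most 3 counts over the cultures. Gbp2, whose promoter is printed above with an IRF core 59 to 50 bases before the start, had 10.24, 5.91 and 14.34 CPM in tumors, against 0.851, 0.710 and 0.803 CPM in cultures (3.55, SE 0.42, adjusted p = 0.00109). Irgm1, with 2 overlapping cores between 30 and 15 bases before the start, had 9.51, 10.93 and 10.43 CPM in tumors, against 3.35, 3.35 and 3.55 CPM in cultures (1.45, SE 0.22, adjusted p = 0.0024). The spread of Irgm1 among tumors was small, and all tumors lay above all cultures for both genes. Of 29 interferon response genes, 22 were higher and 0 lower, with a median of 2.22. The sum of this list was 582, 594 and 1260 CPM in tumors, against 509, 533 and 540 CPM in cultures, so the excess was largest in tumor 3. Ifi44, an interferon-induced gene, had 5.22, 3.33 and 17.26 CPM in tumors, against 0.113, 0.118 and 0.169 CPM in cultures (5.82, SE 0.82, adjusted p = 0.00198). Isg15, a ubiquitin-like modifier, chosen after its values were seen, had 4.61, 3.99 and 22.26 CPM in tumors, against 2.78, 1.62 and 1.65 CPM in cultures. It was called at the margin (2.22, SE 0.74, adjusted p = 0.0469), and leaving out tumor 3 (0.92, adjusted p = 0.0729), culture 1 (adjusted p = 0.0859), culture 2 (0.136) or culture 3 (0.134) ended the call. Ifih1, the RNA sensor MDA5, had 8.30, 4.78 and 4.54 CPM in tumors and 1 count over the cultures. Tumor 1 was its highest.

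Most chemokine genes were higher. Of 23 chemokine genes, 14 were higher and 1 lower, against 25.3% of all genes higher, and 10 had at most 3 counts over the cultures. Ccl22, a ligand of CCR4, had 101.0, 96.65 and 31.02 CPM in tumors and no count in cultures (at least 1755-fold), and the monocyte chemokine Ccl8 was at least 1072-fold higher. Ccl2, the main monocyte chemokine, had 33.79, 24.15 and 140.1 CPM in tumors, against 18.49, 13.17 and 15.63 CPM in cultures. All tumors lay above all cultures, but tumor 3 carried most of the difference and it was not called (1.94, SE 0.66, adjusted p = 0.0508). Leaving out tumor 3 gave 0.70 (adjusted p = 0.0473), leaving out tumor 1 gave 2.25 (0.0385) and leaving out tumor 2 gave 2.29 (0.0289). DESeq2 called it (adjusted p = 0.00307). Cxcl5, which attracts neutrophils, was lower, with 3.00, 4.69 and 5.06 CPM in tumors and 27.17, 20.94 and 19.01 CPM in cultures (-2.55, SE 0.29, adjusted p = 0.000962).

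Of 27 cytokine and growth factor genes, 17 were higher and 1 lower, against 25.3% of all genes higher. Of the 27, 6 had at most 3 counts over the cultures. Il1b, absent from cultures, was at least 1336-fold higher, and Osm, oncostatin M, at least 119.9-fold. Il11, of the interleukin-6 family, had a low culture level and had 27.23, 35.78 and 116.2 CPM in tumors, against 1.59, 1.22 and 1.90 CPM in cultures (5.12, SE 0.66, adjusted p = 0.0015). The lower gene was a cytokine antagonist. Il1rn, the antagonist of the interleukin-1 receptor (ENSMUSG00000026981.15, chromosome 2, 24336853 to 24351494), had 246.6, 250.7 and 181.8 CPM in tumors, against 1241, 1255 and 1241 CPM in cultures (-2.61, SE 0.17, adjusted p = 0.000142). Inhba, the beta A subunit of activin, chosen after its values were seen, had 125.9, 120.9 and 117.4 CPM in tumors, against 18.94, 34.35 and 34.52 CPM in cultures (1.92, SE 0.22, adjusted p = 0.000968). Of 16 complement genes, 10 were higher and 0 lower, and 5 had at most 3 counts over the cultures. Serping1, the C1 inhibitor, had 95.14, 39.77 and 23.46 CPM in tumors, against 0.0567, 0.0789 and 0.0423 CPM in cultures (9.52, SE 0.80, adjusted p = 0.000347). The receptor gene C5ar1 had 33.02, 22.65 and 31.07 CPM in tumors and 3 counts over the cultures.

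Genes of hypoxia and glycolysis were higher in 21 of 31 cases, with 0 lower and a median of 1.45, against 25.3% of all genes higher. Of the 31 genes, 3 had at most 3 counts over the cultures. The sum was 12400, 16700 and 21600 CPM in tumors, against 11600, 10600 and 10600 CPM in cultures. Bnip3, a mitochondrial autophagy gene of the hypoxia response, chosen after its values were seen, had 124.0, 197.8 and 348.2 CPM in tumors, against 20.19, 14.71 and 15.21 CPM in cultures (3.60, SE 0.42, adjusted p = 0.00103). Ndrg1, also chosen after its values were seen, had 325.1, 529.3 and 1351 CPM in tumors, against 56.32, 59.52 and 62.99 CPM in cultures (3.50, SE 0.53, adjusted p = 0.00258). Both were lowest in tumor 1 and highest in tumor 3, the reverse of the fibroblast order. Slc2a3, the glucose transporter GLUT3, had 21.29, 21.95 and 8.65 CPM in tumors and 1 count over the cultures, and Adm, adrenomedullin, 4.78, 5.96 and 6.99 CPM in tumors and 2 counts over the cultures. Some glycolytic enzymes were not called. Gapdh, of the triose step, had 1704, 2305 and 2873 CPM in tumors, against 2028, 1779 and 1781 CPM in cultures (0.16, SE 0.23, adjusted p = 0.614). Ldha, lactate dehydrogenase A, had 1495, 1953 and 2650 CPM in tumors, against 1667, 1370 and 1391 CPM in cultures (0.32, SE 0.25, adjusted p = 0.34).

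Of 15 angiogenic factors, 10 were higher and 2 lower, with a median of 1.49, against 25.3% and 16.6% of all genes. Vegfa, the main endothelial growth factor, chosen after its values were seen, had 218.2, 321.8 and 371.7 CPM in tumors, against 43.05, 48.20 and 46.98 CPM in cultures (2.58, SE 0.22, adjusted p = 0.00037). Dll4, a Notch ligand of sprouting endothelium, had 17.12, 15.38 and 17.05 CPM in tumors, against 0, 0.355 and 0.0845 CPM in cultures (6.52, SE 0.69, adjusted p = 0.000749). Fgf2 had 7.33, 4.27 and 3.55 CPM in tumors, against 0.397, 0.434 and 0.592 CPM in cultures (3.25, SE 0.42, adjusted p = 0.00145). The aquaporin gene Aqp1, a water channel of capillaries, had 154.5, 84.03 and 114.8 CPM in tumors, against 1.99, 2.29 and 2.03 CPM in cultures (5.67, SE 0.28, adjusted p = 7.4e-05).

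**Figure D3:**
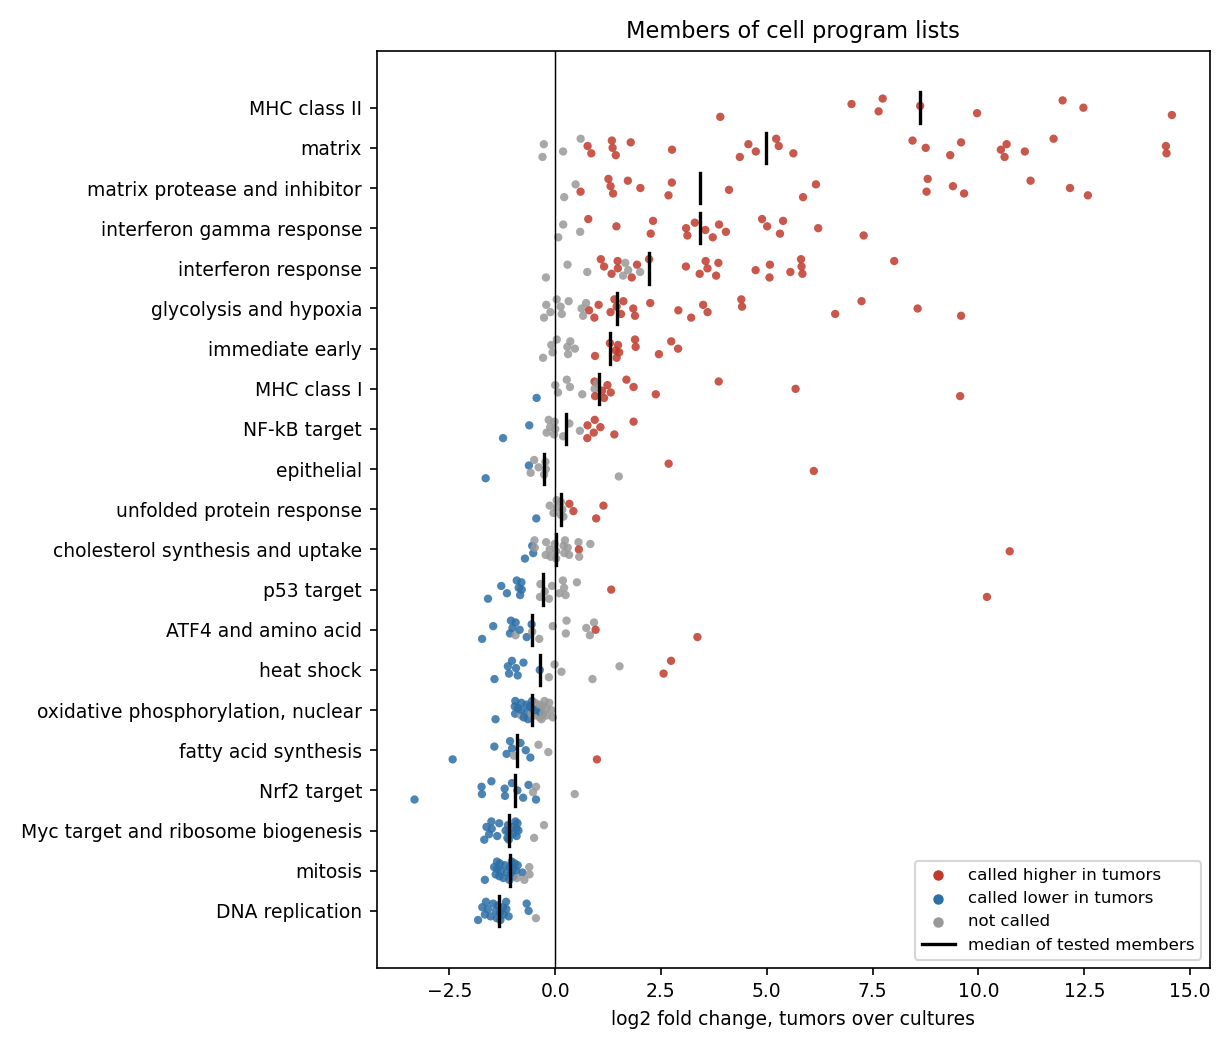
Each point is a tested member of a gene list, placed by its log2 fold change of tumors over cultures and colored by its call, and the bar is the median of the tested members. All DNA replication, mitosis and Myc and ribosome biogenesis members lie left of 0, as do the Nrf2 members other than Hmox1. All class II and interferon gamma members lie right of it, as do the matrix members other than Nid1 and Spp1 and the interferon response members other than Lgals3bp. Members with almost no culture count appear in the upper rows, where the filter admits them through the tumors.

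Genes of cell division were lower. Of 20 DNA replication genes, 19 were lower and 0 higher, with a median of -1.33, against a background of 16.6% lower. The sum was 2220, 1590 and 1500 CPM in tumors, against 4060, 4030 and 4040 CPM in cultures. Mcm5, a subunit of the replicative helicase (ENSMUSG00000005410.6, chromosome 8, 75109569 to 75128439), had 127.6, 77.56 and 63.65 CPM in tumors, against 273.8, 299.1 and 285.6 CPM in cultures (-1.82, SE 0.25, adjusted p = 0.00191). Rrm2, the regulated subunit of ribonucleotide reductase, had 199.9, 119.7 and 113.3 CPM in tumors, against 430.7, 426.0 and 433.6 CPM in cultures (-1.72, SE 0.23, adjusted p = 0.00173). In both genes tumor 1 was the highest tumor and still lay below every culture. Of 25 mitosis genes, 21 were lower and 0 higher, with a median of -1.07. Leaving out tumor 2 left 10 of them lower and leaving out culture 2 left 12, with no gene higher in either case. Cdc20, the activator of the anaphase-promoting complex, had 78.79, 55.52 and 48.43 CPM in tumors, against 192.2, 163.8 and 164.8 CPM in cultures (-1.66, SE 0.21, adjusted p = 0.00142). Mki67, the proliferation antigen Ki-67, had 319.7, 232.8 and 175.2 CPM in tumors, against 220.7, 409.2 and 382.9 CPM in cultures. Its groups overlapped and it was not called (-0.61, SE 0.28, adjusted p = 0.118), but it passed without culture 1 (-0.84, adjusted p = 0.0461). The part of host cells in these differences was not tested.

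Genes of ribosome production were lower too. Of 21 genes of Myc targets and ribosome biogenesis, 19 were lower and 0 higher, with a median of -1.10. Among all genes 16.6% were lower. Nolc1, a nucleolar chaperone, had 126.9, 136.6 and 94.52 CPM in tumors, against 324.6, 341.2 and 329.8 CPM in cultures (-1.62, SE 0.16, adjusted p = 0.000599). Cad, the first enzyme of pyrimidine synthesis, had 118.1, 96.69 and 59.43 CPM in tumors, against 182.9, 314.2 and 299.0 CPM in cultures (-1.67, SE 0.29, adjusted p = 0.00383). Myc itself, chosen after its values were seen, had 206.6, 281.6 and 308.6 CPM in tumors, against 289.0, 289.1 and 289.0 CPM in cultures. Its groups overlapped and it was not called (-0.26, SE 0.18, adjusted p = 0.276).

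Amino acid and one-carbon enzymes were lower as well. Of 21 genes of the ATF4 and amino acid list, 9 were lower and 2 higher, with a median of -0.55, and 5 were lower without culture 2. Among all genes 16.6% were lower. Psat1, of serine synthesis (ENSMUSG00000024640.9, chromosome 19, 15904678 to 15947337), had 132.2, 123.8 and 109.0 CPM in tumors, against 368.1, 359.9 and 363.3 CPM in cultures (-1.72, SE 0.13, adjusted p = 0.000242). Shmt2, the mitochondrial serine hydroxymethyltransferase, had 114.1, 109.8 and 78.04 CPM in tumors, against 242.2, 256.5 and 253.7 CPM in cultures (-1.46, SE 0.16, adjusted p = 0.000913). The stress genes of the same list went the other way. Nupr1, a stress-induced nuclear protein, had 27.15, 25.70 and 39.00 CPM in tumors, against 3.40, 2.76 and 1.94 CPM in cultures (3.36, SE 0.31, adjusted p = 0.00051). Ddit3, the factor CHOP, had 15.54, 18.34 and 15.28 CPM in tumors, against 7.997, 7.93 and 6.97 CPM in cultures (0.96, SE 0.19, adjusted p = 0.00623). Of the 21, 5 were higher without tumor 3.

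The unfolded protein response moved little as a list, with 4 of 13 genes higher, 1 lower and a median of 0.14. Its higher share was near the background of 25.3%. Xbp1, the factor spliced by IRE1, had 255.9, 269.6 and 251.8 CPM in tumors, against 118.7, 100.1 and 99.20 CPM in cultures (1.14, SE 0.15, adjusted p = 0.00139). Its partner gene Dnajb9, a chaperone of the endoplasmic reticulum, had 41.80, 65.60 and 54.74 CPM in tumors, against 26.32, 24.14 and 24.42 CPM in cultures (0.97, SE 0.19, adjusted p = 0.00694). The higher count of the list was 2 when culture 2, culture 3, tumor 1 or tumor 2 was left out. Of 15 heat shock genes, 8 were lower and 2 higher, with a median of -0.36, against 16.6% of all genes lower. The mitochondrial chaperonins Hspd1 and Hspe1 were lower, Hspd1 with 592.2, 574.5 and 364.0 CPM in tumors, against 1297, 1214 and 1215 CPM in cultures (-1.43, SE 0.21, adjusted p = 0.00217). Cryab, a small heat shock protein, was higher, with 8.22, 5.58 and 7.92 CPM in tumors, against 1.08, 1.03 and 1.23 CPM in cultures (2.56, SE 0.31, adjusted p = 0.0011).

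Nrf2 targets were lower as a group. Of 14 genes, 11 were lower and 0 higher, with a median of -0.95 (background 16.6% lower, median 0.05). Nqo1, the quinone reductase by which Nrf2 activity is commonly read (ENSMUSG00000003849.8, chromosome 8, 107388225 to 107403206), had 4.05, 4.17 and 4.69 CPM in tumors, against 37.60, 40.43 and 39.08 CPM in cultures. The log2 fold change was -3.32 (SE 0.16, adjusted p = 6.9e-05), and neither group varied much. Gclm, whose promoter is printed above with the antioxidant core 134 to 126 bases before the start, had 23.92, 20.45 and 13.71 CPM in tumors, against 58.25, 59.60 and 56.23 CPM in cultures (-1.73, SE 0.21, adjusted p = 0.00121). Txnrd1, with a core 92 to 84 bases before the start, had 173.7, 140.5 and 91.96 CPM in tumors, against 240.8, 295.7 and 304.4 CPM in cultures (-1.19, SE 0.23, adjusted p = 0.00572). Gsta4, a glutathione transferase, had 5.91, 9.14 and 10.64 CPM in tumors, against 31.54, 22.13 and 23.62 CPM in cultures (-1.74, SE 0.29, adjusted p = 0.00339). Hmox1, heme oxygenase, which other factors also control, had 48.89, 29.92 and 59.74 CPM in tumors and 34.03, 28.32 and 28.77 CPM in cultures, with overlapping groups and no call (0.46, SE 0.27, adjusted p = 0.211).

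Of 31 nuclear genes of oxidative phosphorylation, 16 were lower and 0 higher, with a median of -0.53, against 16.6% of all genes lower. Leaving out 1 library gave 7 lower without tumor 1, 8 without tumor 2, 10 without culture 1 and 10 without culture 2. Cycs, cytochrome c, had 79.24, 58.57 and 63.71 CPM in tumors, against 188.4, 149.1 and 144.5 CPM in cultures (-1.41, SE 0.19, adjusted p = 0.00181). Atp5a1, a subunit of ATP synthase, had 447.6, 427.6 and 330.2 CPM in tumors, against 687.1, 711.2 and 712.3 CPM in cultures (-0.95, SE 0.15, adjusted p = 0.00295). Of 13 mitochondrially encoded genes, 10 were tested, and 3 were higher and 0 lower, near the background of 25.3% higher. The gene mt-Co1, a subunit of cytochrome oxidase, had 10930, 13100 and 9767 CPM in tumors, against 4254, 4530 and 4587 CPM in cultures (1.19, SE 0.17, adjusted p = 0.00188). Its neighbors mt-Co2 and mt-Co3, chosen after their values were seen, were under 1.5 CPM in every library.

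Fatty acid synthesis was lower, with 8 of 12 genes lower, 1 higher and a median of -0.90, against 16.6% of all genes lower. Me1, malic enzyme, which supplies NADPH, had 29.62, 25.84 and 14.75 CPM in tumors, against 121.9, 108.0 and 109.0 CPM in cultures (-2.42, SE 0.26, adjusted p = 0.000802). Acaca, acetyl-CoA carboxylase, had 37.03, 31.75 and 23.77 CPM in tumors, against 45.37, 93.24 and 90.03 CPM in cultures (-1.44, SE 0.28, adjusted p = 0.0065). The cultures themselves differed here, with culture 1 the lowest of them and nearest to tumor 1. Cholesterol genes showed no common direction, with 2 of 23 higher, 3 lower and a median of 0.02, and 6 were higher without tumor 2. The exception by size was Stard4, a sterol carrier, which had 19.22, 7.46 and 3.91 CPM in tumors and no count in cultures (at least 241.5-fold).

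Immediate early genes, which respond within minutes to growth factors or handling, were higher in 11 of 20 cases, with 0 lower and a median of 1.29. Among all genes 25.3% were higher. Fos had 34.96, 12.24 and 22 CPM in tumors, against 2.16, 3.35 and 2.87 CPM in cultures (2.91, SE 0.41, adjusted p = 0.00195). Klf2, a factor of endothelium and lymphocytes as well as an early gene, had 16.19, 9.38 and 29.09 CPM in tumors, against 2.44, 2.84 and 2.16 CPM in cultures (2.74, SE 0.44, adjusted p = 0.00322). The time between excision and freezing is not given. Of 20 NF-kB targets, 18 were tested, and 7 were higher and 2 lower, with a median of 0.26, against a background of 25.3% higher. The inhibitor gene Nfkbiz had 18.74, 24.71 and 32.37 CPM in tumors, against 5.90, 6.71 and 6.46 CPM in cultures (1.85, SE 0.24, adjusted p = 0.00153).

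Glucocorticoid and clock genes were looked at because a mouse, unlike a dish, has a daily hormone rhythm. Of 9 glucocorticoid targets, 7 were tested, and 4 were higher and 0 lower, with a median of 1.21, against 25.3% of all genes higher. Tsc22d3, the glucocorticoid-induced leucine zipper, had 22.62, 30.11 and 27.53 CPM in tumors, against 4.99, 6.27 and 6.17 CPM in cultures (2.06, SE 0.19, adjusted p = 0.000454). Ddit4, an inhibitor of mTORC1 that hypoxia also induces (ENSMUSG00000020108.4, chromosome 10, 59949669 to 59951834), had 156.4, 187.5 and 128.1 CPM in tumors, against 19.74, 19.01 and 17.96 CPM in cultures (2.91, SE 0.18, adjusted p = 0.000123). Fkbp5 and Sgk1, classical targets of the same receptor and chosen after their values were seen, were not called, with 120.1, 178.9 and 108.9 CPM of Fkbp5 in tumors and 139.4, 149.6 and 148.2 CPM in cultures. Of 14 clock genes, 13 were tested, and 3 were higher and 3 lower, near the background of 25.3% and 16.6%. Arntl, the positive factor BMAL1, had 38.08, 56.46 and 51.04 CPM in tumors, against 12.25, 14.71 and 15.42 CPM in cultures (1.64, SE 0.19, adjusted p = 0.000985). Dbp, a clock output that peaks in the opposite phase, had 4.78, 5.49 and 5.32 CPM in tumors, against 17.13, 14 and 13.77 CPM in cultures (-1.67, SE 0.21, adjusted p = 0.00142). Tef, its relative, was lower too (-1.16, SE 0.13, adjusted p = 0.000776). Per1, another clock gene, was higher, with a log2 fold change of 1.21. A shift of clock phase was not tested. The hour of collection is not given.

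Among TGF-beta and BMP targets, 2 of 11 were higher and 2 lower, near the background of 25.3% and 16.6%, and 6 were higher without tumor 3. Pmepa1, a TGF-beta target, had 393.5, 230.4 and 69.55 CPM in tumors, against 24.79, 22.05 and 22.60 CPM in cultures (3.17, SE 0.57, adjusted p = 0.00455). Id1, a BMP target, had 47.67, 56.65 and 38.47 CPM in tumors, against 229.8, 165.8 and 168.1 CPM in cultures (-2.13, SE 0.22, adjusted p = 0.000708). Of 20 p53 targets, 8 were lower and 2 higher, with a median of -0.30, against 16.6% of all genes lower. Gtse1, a cell cycle gene of that list, had 48.36, 40.70 and 27.79 CPM in tumors, against 101.8, 108.5 and 107.1 CPM in cultures (-1.59, SE 0.20, adjusted p = 0.00142). Pmaip1, the apoptosis gene NOXA, had 10.56, 5.82 and 4.64 CPM in tumors and no count in cultures (at least 161.5-fold). The damage-response gene Cdkn1a averaged 332 CPM in tumors and 265 CPM in cultures and was not called. MAPK feedback genes gave 1 higher and 1 lower of 12, and YAP and SRF targets 3 higher and 1 lower of 18, both with medians whose sign changed with the scaling. Il1rl1, the receptor of interleukin-33, was the higher one of the MAPK list, with 13.11, 2.86 and 5.01 CPM in tumors, against 0.397, 0.710 and 0.465 CPM in cultures (3.58, SE 0.65, adjusted p = 0.00472). Of the 4 metallothionein and zinc genes, 1 was higher. It was Mt2, a metal-binding protein, with 63.25, 120.0 and 302.3 CPM in tumors, against 54.90, 34.91 and 35.28 CPM in cultures. Its call (1.82, SE 0.56, adjusted p = 0.0369) ended without tumor 3 (0.95, adjusted p = 0.059), tumor 2 (0.0605), culture 1 (0.0688), culture 2 (0.113) or culture 3 (0.111).

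**Figure D4:**
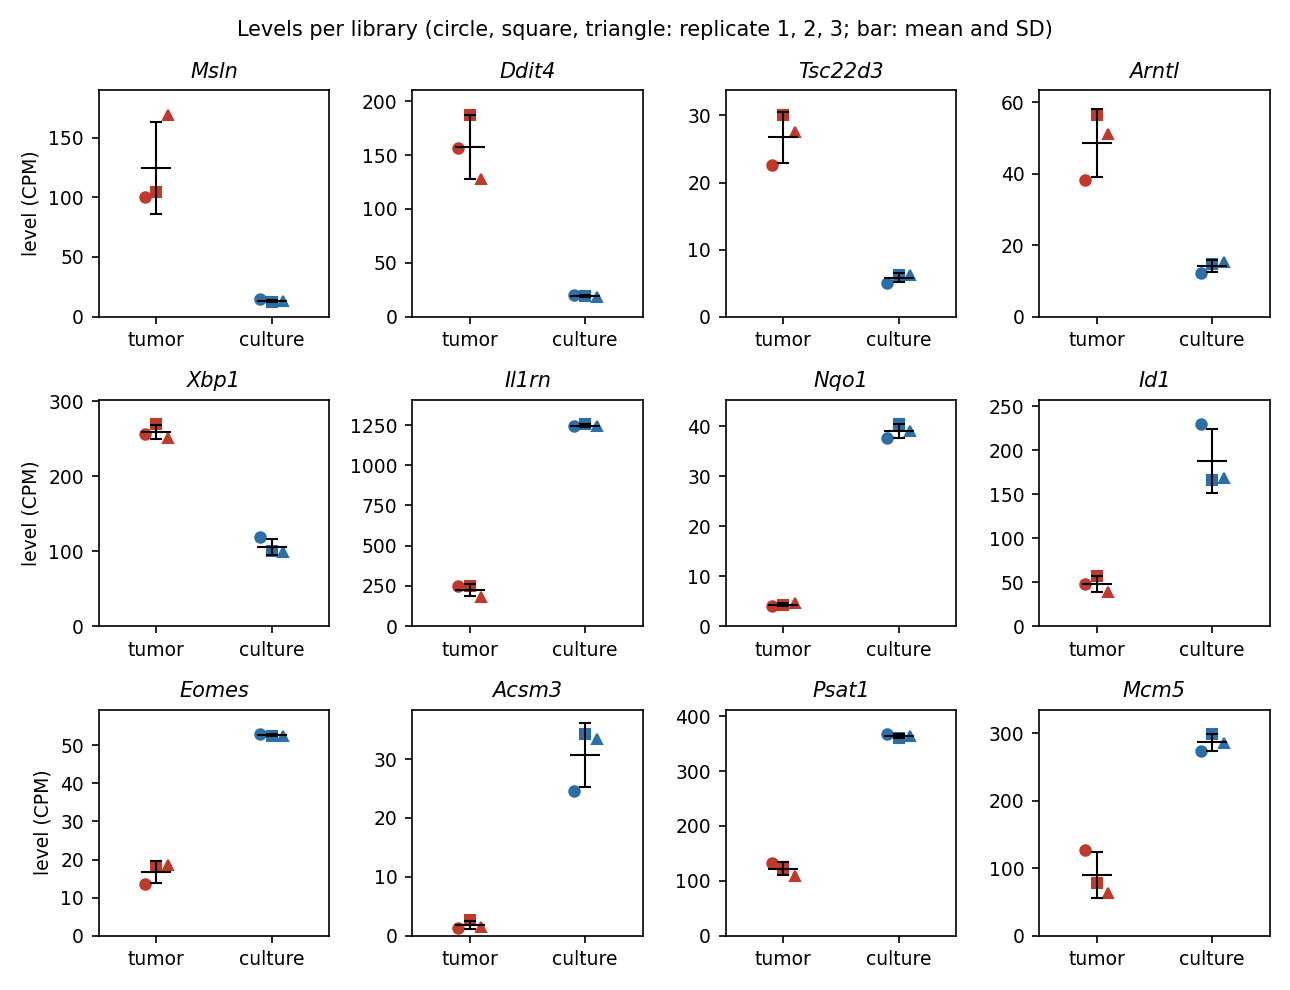
Levels of 12 genes in CPM, each on its own axis from 0, with control tumors left and control cultures right, a symbol for each replicate and a bar for the mean and SD (n = 3 each). Msln, Ddit4, Tsc22d3, Arntl and Xbp1 are higher in tumors, Il1rn, Nqo1, Id1, Eomes, Acsm3, Psat1 and Mcm5 are lower, and no tumor overlaps a culture.

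Single genes that the cultured line expressed and the tumor nearly lost were few. Acsm3, a mitochondrial medium-chain acyl-CoA synthetase (ENSMUSG00000030935.15, chromosome 7, 119760923 to 119787513), had 1.38, 2.63 and 1.41 CPM in tumors, against 24.50, 34.31 and 33.46 CPM in cultures (-4.23, SE 0.30, adjusted p = 0.000222). Clca1, a secreted protein that regulates a chloride channel, had 1.78, 2.77 and 2.24 CPM in tumors, against 26.54, 28.63 and 28.22 CPM in cultures (-3.76, SE 0.22, adjusted p = 9.45e-05). Atp1b1, the beta subunit of the sodium pump, had 2.35, 1.45 and 3.18 CPM in tumors, against 22.01, 24.34 and 23.41 CPM in cultures (-3.46, SE 0.31, adjusted p = 0.000457). All 3 tumors were far below all cultures in each of these genes. The water channel Aqp8 had 18.86, 10.93 and 16.32 CPM in tumors, against 116.7, 89.14 and 89.86 CPM in cultures (-2.83, SE 0.26, adjusted p = 0.000507), and the chloride channel Clcn1 fell by 2.91 on the log2 scale (SE 0.34, adjusted p = 0.00106). Dlk2, a relative of a Notch pathway ligand, fell by 3.08 (SE 0.28, adjusted p = 0.000491) and Hpdl, a mitochondrial dioxygenase, by 2.77 (SE 0.36, adjusted p = 0.00143).

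Cdh9 and Cxcl15 were less even. Cdh9, a cadherin, had 3.04, 10.79 and 0.156 CPM in tumors, against 46.62, 56.44 and 56.28 CPM in cultures (-3.66, SE 0.96, adjusted p = 0.02). Its call ended without culture 1 (adjusted p = 0.0552), culture 2 (0.052), culture 3 (0.0507) or tumor 1 (0.0571), with log2 fold changes of -3.42 to -3.74. Cxcl15, the chemokine lungkine, had 4.41, 16.93 and 1.15 CPM in tumors, against 47.02, 39.91 and 38.02 CPM in cultures (-2.63, SE 0.79, adjusted p = 0.0327). Without tumor 2 the change was -4.07 (adjusted p = 0.0065), and the call ended without tumor 1 (-2.36, 0.0866), culture 1 (0.0903), culture 2 (0.0675) or culture 3 (0.0634). In both genes tumor 2 was the highest tumor and tumor 3 the lowest. Among genes of low level, 3 kept at most 3 counts over all tumors and were chosen after their values were seen. Hnf4a, a transcription factor best known from hepatocytes, had 3 counts over the tumors and 193 over the cultures, lower by a ratio of 62.95 (95% counting interval 21.22 to 307.9). Iapp, the islet amyloid peptide, had 0 counts over the tumors and 46 over the cultures, at least 15-fold lower. BC030870 had 1 count over the tumors and 167 over the cultures.

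Tumor 3 differed from the other tumors along several lists at once. Its fibroblast sum of 725 CPM compared with 7600 CPM in tumor 2 and 20800 CPM in tumor 1, and its pericyte and endothelial sums were the lowest. Its sums for neutrophils, keratinocytes, interferon response, hypoxia and metallothionein were the highest. The chi-square per gene set it apart from both others, and its root mean square log2 difference to tumors 1 and 2 was 0.889 and 0.724, against 0.439 between those 2. Distances between tumors and cultures were larger, at 1.34 to 1.62, and those of tumor 3 lay between 1.34 and 1.38. Culture 1 differed from cultures 2 and 3 by 0.465 and 0.469, against 0.169 between those 2.

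**Figure D5:**
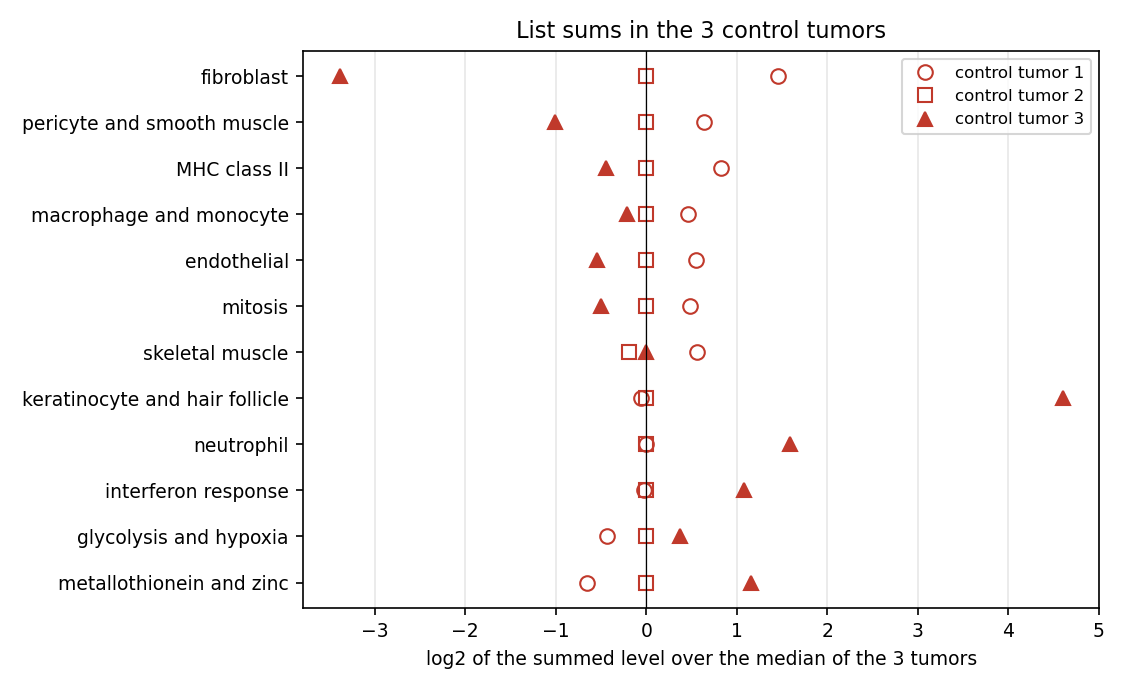
For 12 gene lists, each symbol gives the log2 of the summed level in 1 control tumor over the median of the 3 control tumors, with tumor 3 filled. Tumor 3 lies left of 0 for fibroblast, pericyte, class II and endothelial sums and right of 0 for keratinocyte, neutrophil, interferon, hypoxia and metallothionein sums.

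The same contrast could be read in 6 libraries that share none with this one, HM-1 tumors labelled Cd276KO over HM-1 cultures labelled Cd276KO. Of the 3689 genes higher in control tumors, 3312 were tested there. Of these, 3141 (94.8%) were higher and 17 lower, against a background of 41.2% higher among 14330 genes. Among the 3689, 865 had at most 3 counts over the control cultures. Where such a gene was also near 0 in the Cd276KO cultures, the filter could admit it only through the tumors. Its agreement then follows from the filter, and the 94.8% includes such genes. Of the 2418 lower genes, 2388 were tested there and 2265 (94.8%) were lower and 19 higher, against a background of 34.5% lower. The 2 pairs of groups differ in genotype, so they are not replicates of each other. Nqo1 had a log2 fold change of -3.09 there, Eomes -2.37, Il1rn -1.19 and Msln 0.66, the same directions as in the controls, and whether their sizes differed was not tested. Others did not follow: Atp1b1 had -0.0031 there (adjusted p = 0.996), against -3.46 in the controls. Angpt1 had 0.52 there and -1.59 in the controls, and Id3 0.20 there and -1.21 in the controls. The cultures themselves differed between the 2 pairs. Atp1b1 had 3.68, 3.74 and 2.99 CPM in cultures labelled Cd276KO, below every control culture given above, and 0.835, 6.56 and 3.98 CPM in tumors labelled Cd276KO. Msln had 44.74, 49.63 and 44.09 CPM in cultures labelled Cd276KO, against 14.46, 12.19 and 12.72 CPM in control cultures. A fold that differs between the pairs may therefore reflect the cultures, the tumors or both.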

How the data were processed

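RNA-seq libraries of 3 control HM-1 tumors and 3 control HM-1 cultures were compared. The deposited values are whole-number counts of reads per gene. Reads were trimmed with Trim Galore, aligned with STAR and counted with HTSeq, on GRCm38, per the submitters' processing notes, with versions and strand setting not given in the sources used here. Reads of overlapping or antisense gene pairs may therefore be mixed. The table held 54752 genes, 24750 of them with no count in the 6 libraries.

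Groups were taken from the labels. Genes were filtered with filterByExpr, which left 14609, scaled by TMM and tested with edgeR's robust quasi-likelihood test (edgeR 4.0.16, R 4.3.3), with Benjamini-Hochberg adjustment over all genes tested. CPM uses the library total. A group at 0 was set to 3 counts over the group for a bound, and 1 to 3 counts give a ratio with an exact 95% conditional interval; these cover counting error only. Alternatives were DESeq2 1.42.0, limma 3.58.1 (voom with quality weights), other scalings, no filter, all 18 libraries, a replicate block, and leaving libraries out. On simulated data for this comparison (14609 genes) edgeR recovered 22% of 2-fold and 75.5% of 4-fold changes, with 7.2% of calls false, against 31.5% for DESeq2. The simulation changed a far smaller share of genes than the 41.8% called here. Recovery and the share of false calls depend on that share, so these values do not carry over to the data.

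The comparison, the 55 gene lists and the motifs were chosen with earlier results of these data known. Named genes were 15 always given, the 10 largest changes in each of 3 classes (higher with a culture mean under 1 CPM, higher with at least 1 CPM, lower) at a mean of at least 5 CPM, and up to 2 called genes per direction from each list. Promoters are from RefSeq on GRCm38.p6; the search for TGACNNNGC was added after the data were seen. Not every gene this rule names is described, and some results are not reported here.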

Additional observations from a re-analysis of the deposited data

Results flagged for a closer look

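Cxcl15, which encodes the chemokine lungkine, moved in opposite directions in the 2 pairs of groups. It had 4.41, 16.93 and 1.15 CPM in control tumors, against 47.02, 39.91 and 38.02 CPM in control cultures, a log2 fold change of -2.63. It had 26.37, 22.73 and 30.38 CPM in tumors labelled Cd276KO, against 7.69, 5.84 and 6.55 CPM in cultures labelled Cd276KO, a log2 fold change of 1.85 (edgeR adjusted p = 5.36e-06). Every control tumor lay below every control culture, and every tumor labelled Cd276KO lay above every culture labelled Cd276KO. The difference between the 2 changes was not tested, and the call in the controls ended when culture 1, culture 2, culture 3 or tumor 1 was left out.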

How the results depend on the processing

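No gene called both in the main test and in an alternative changed direction between them. The median log2 fold change of all genes was -0.08 with no filter and -0.01 without tumor 3, against 0.05, and the medians of the MAPK, YAP and SRF, cholesterol, clock and epithelial lists changed sign with a scaling or a library left out. Of 6107 calls (3689 higher, 2418 lower), scaling on genes the cultures express at 10 CPM or more left 1430 lower, and the fit of all 18 libraries gave 9974 calls, 5733 higher and 4241 lower. Without culture 1 and tumor 3, 4064 were lower. Leaving out 1 library gave 4336 to 7072 calls, 2785 to 4266 higher and 1548 to 2806 lower. Genes with a tumor count and none in cultures numbered 5661, against 10612 with at most 3 culture counts. DESeq2 called 7249 genes. The replicate block gave 4694 calls, 3021 higher and 1673 lower, and 16 named genes lost their call. Deviations of same-numbered libraries from their group mean correlated at -0.24, 0.37 and -0.35. With 3 libraries a group, culture 1 and tumor 3, which stood apart, shape these values. They can neither show nor exclude a pairing. The cause of these shifts was not tested. On simulated counts with a far smaller share of genes changed, 22% of 2-fold changes were recovered with 3 libraries a group.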
